A study of Mus musculus with 2 samples.

Results

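The 9 lysosomal protease genes described here, of 32285 genes measured, were followed through a single-cell RNA-seq experiment on mouse bone marrow cultures: the cathepsin genes Ctsa, Ctsb, Ctsc, Ctsd, Ctsh, Ctsl, Ctss and Ctsz, and the legumain gene Lgmn. They were chosen by name, as a set of widely expressed proteases of the lysosome, with earlier results of these data known. They were described by their level and by the share of cells with a transcript. Both were taken in all cells that passed the filters and in cells grouped by marker genes. The DHT group was 1 library of cells kept in 1 nM 5α-dihydrotestosterone, an androgen, and the Vehicle group was 1 library of cells kept in ethanol, the solvent. Both came from the adherent bone marrow cells of 1 wild-type male C57BL/6J mouse aged 3 months, grown in medium depleted of hormones. Both received 5 ng/mL M-CSF for 48 h and then 100 ng/mL M-CSF, 30 ng/mL RANKL and 10 ng/mL human TNF for 24 h, the factors that drive monocyte precursors towards osteoclasts, with DHT or ethanol present throughout. With 1 library per group from 1 mouse there is no replicate, so no test between conditions was possible. Intervals given below are 95% and cover counting error only.

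Lysosomal proteases are made as inactive precursors, carried to the lysosome by the mannose 6-phosphate receptor or its alternates, and activated in its acid interior by cleavage, partly by one another. Macrophages use them to digest engulfed material and to cut antigens, and osteoclasts, the bone-resorbing relatives of macrophages, also release proteases onto bone, chiefly cathepsin K, which is not among the 9. Many lysosomal genes carry the CLEAR element, built around the letters CACGTG, which the transcription factors of the TFEB family bind.

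The promoters are shown so that those of genes highest in macrophage-like cells in both libraries, such as Ctsd, Ctsl and Lgmn, can be set beside those of genes with another order. Windows of 300 bases, reaching from 250 bases before an annotated start to 50 bases after its first base, were in the RefSeq promoter table of GRCm38.p6 for 7 of the 9 genes, with 9 windows in all; Ctsb and Ctsh are named only. Each window was searched on both strands for CACGTG, for TCACGTGA, the core of the CLEAR element, which contains CACGTG, and for the core of the interferon-stimulated response element, a pair of GAAA with any 2 bases between them. Of 32851 promoter windows in the table, 7.15% held CACGTG, 0.974% held TCACGTGA and 3.44% held the interferon element core. The 5 windows of the set with a match follow, 5′ to 3′, with the matches in capitals.

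Ctsa, chr2:164833523-164833822 (+ strand): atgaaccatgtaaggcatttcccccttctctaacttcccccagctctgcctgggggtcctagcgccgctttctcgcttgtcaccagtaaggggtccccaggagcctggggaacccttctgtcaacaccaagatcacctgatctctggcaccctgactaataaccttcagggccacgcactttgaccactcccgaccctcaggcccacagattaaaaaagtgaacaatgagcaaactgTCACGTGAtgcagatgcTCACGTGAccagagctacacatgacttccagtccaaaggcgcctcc
Ctsd, chr7:142387778-142388077 (- strand): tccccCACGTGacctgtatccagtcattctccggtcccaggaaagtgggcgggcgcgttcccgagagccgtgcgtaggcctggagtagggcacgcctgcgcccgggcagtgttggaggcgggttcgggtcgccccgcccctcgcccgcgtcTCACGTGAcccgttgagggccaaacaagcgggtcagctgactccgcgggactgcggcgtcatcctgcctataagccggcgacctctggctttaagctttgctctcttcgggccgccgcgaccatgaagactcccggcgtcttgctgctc
Ctsl, chr13:64370471-64370770 (- strand): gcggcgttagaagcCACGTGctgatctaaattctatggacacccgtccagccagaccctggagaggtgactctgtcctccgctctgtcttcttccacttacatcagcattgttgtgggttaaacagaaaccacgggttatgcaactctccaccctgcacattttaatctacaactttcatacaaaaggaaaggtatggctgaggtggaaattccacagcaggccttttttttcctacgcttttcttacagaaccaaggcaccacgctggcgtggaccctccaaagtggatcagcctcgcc
Lgmn, chr12:102439043-102439342 (- strand): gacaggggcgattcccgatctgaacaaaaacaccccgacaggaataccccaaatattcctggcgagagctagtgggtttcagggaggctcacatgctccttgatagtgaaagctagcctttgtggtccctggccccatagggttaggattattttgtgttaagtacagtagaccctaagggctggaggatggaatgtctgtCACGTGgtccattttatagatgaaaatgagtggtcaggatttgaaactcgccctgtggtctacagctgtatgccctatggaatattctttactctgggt
Ctss, chr3:95526536-95526835 (+ strand): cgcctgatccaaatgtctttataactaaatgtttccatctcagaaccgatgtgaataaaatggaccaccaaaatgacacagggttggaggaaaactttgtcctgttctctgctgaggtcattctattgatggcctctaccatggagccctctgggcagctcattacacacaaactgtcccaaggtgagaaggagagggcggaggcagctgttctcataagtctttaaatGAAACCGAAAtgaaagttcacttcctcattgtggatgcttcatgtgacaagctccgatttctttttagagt

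Ctsa had 2 copies of TCACGTGA on either side of 1 of its annotated starts and none at the other, and Ctsd had 1 copy of TCACGTGA and another CACGTG farther upstream. Ctsl and Lgmn each had 1 CACGTG, the Lgmn copy at 1 of its 2 annotated starts. Ctss was the only gene of the 7 with the interferon element core, close to its start. The windows of Ctsc and Ctsz held none of the 3 motifs. A match describes the letters and shows no binding.

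The DHT library held 10798 barcodes and 319430510 UMIs, and the Vehicle library 10630 barcodes and 453802415 UMIs, with medians of 13838 (DHT) and 43120.5 (Vehicle) UMIs per barcode before any filter, so the DHT library was shallower per cell. After filters on genes, UMIs and mitochondrial share and the removal of called doublets, 7706 DHT and 8581 Vehicle cells remained, with medians of 30126 (DHT) and 50828 (Vehicle) UMIs. The libraries shared 33 barcodes. Clustering gave 15 groups, made without the 9 genes and without interferon-stimulated genes. The comparison took 7 classes that could be named from markers and held 100 or more cells of each library. Osteoclast-like cells (clusters 2, 4 and 5) were 1556 DHT and 3106 Vehicle cells, macrophage-like cells (cluster 0) 943 DHT and 1271 Vehicle cells, monocyte-like cells (cluster 8) 518 DHT and 395 Vehicle cells, granulocyte-monocyte progenitor-like cells (clusters 9 and 13) 631 DHT and 533 Vehicle cells, neutrophil-like cells (clusters 6, 7 and 10) 1845 DHT and 1082 Vehicle cells, conventional dendritic cell-like cells (cluster 12) 143 DHT and 189 Vehicle cells, and B cell-like cells (cluster 11) 340 DHT and 116 Vehicle cells. The osteoclast markers Acp5 and Ctsk were present in the osteoclast-like cells, at 654 and 524 CPM with DHT and 548 and 468 CPM with Vehicle. Clusters 1 and 3 kept their numbers. Cluster 1 did not meet the naming rule for any type, and cluster 3 had a median of 1503 UMIs per cell.

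Across the cell classes most of the 9 genes were highest in macrophage-like cells in 1 or both libraries. Levels are sums of UMIs over the cells of a class scaled to the total UMIs of that class, the usual CPM unit. In such counts a transcript is counted once whatever its length, so levels were not scaled by length. Whether intronic reads were counted is not given, and overlapping genes may share reads, so an order between genes is approximate. Together the 9 genes made up 0.974% of UMIs in DHT and 0.757% in Vehicle macrophage-like cells, against 0.502% (DHT) and 0.439% (Vehicle) in monocyte-like, 0.357% (DHT) and 0.368% (Vehicle) in osteoclast-like, and 0.108% (DHT) and 0.101% (Vehicle) in neutrophil-like cells.

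Among the cysteine endopeptidases, Ctsl, encoding cathepsin L (chr13:64359337-64370890, mm10, protein-coding), was the most abundant, at 2724 CPM in DHT and 2291 CPM in Vehicle macrophage-like cells. Monocyte-like cells followed with 1280 CPM (DHT) and 1108 CPM (Vehicle), and osteoclast-like cells with 897 CPM (DHT) and 1107 CPM (Vehicle), so monocyte- and osteoclast-like cells were even in the Vehicle library. Ctsb (chr14:63122462-63145923), encoding cathepsin B, which cuts within proteins and also trims dipeptides from their ends, had 2695 CPM in DHT and 1896 CPM in Vehicle macrophage-like cells. Its next levels were 783 CPM (DHT) and 741 CPM (Vehicle) in osteoclast-like and 689 CPM (DHT) and 536 CPM (Vehicle) in monocyte-like cells, and its lowest 130 CPM (DHT) and 124 CPM (Vehicle) in B cell-like cells. Ctss (chr3:95526786-95556403), encoding cathepsin S, which cuts the invariant chain of MHC class II, was highest in macrophage-like cells of the DHT library (894 CPM; 889 CPM in dendritic cell-like cells) and in dendritic cell-like cells of the Vehicle library (717 CPM; 603 CPM in macrophage-like cells). In the DHT library the intervals of these 2 classes overlapped, from 884 to 903 CPM and from 862 to 916 CPM.

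The aspartic protease gene Ctsd (chr7:142375911-142388038), encoding cathepsin D, had 1488 CPM in DHT and 1282 CPM in Vehicle macrophage-like cells, and 656 CPM (DHT) and 580 CPM (Vehicle) in monocyte-like cells. Neutrophil-like cells, low in most of the other 8 genes, still had 357 CPM of Ctsd with DHT and 348 CPM with Vehicle. Lgmn (chr12:102394084-102439813), encoding legumain, an asparaginyl endopeptidase that also processes cathepsin precursors, spanned the widest range with DHT: its highest class was 47.3-fold above its lowest with DHT and 44.3-fold with Vehicle. The lowest class was neutrophil-like cells, where free RNA could give 52.2% (DHT) and 92.0% (Vehicle) of the Lgmn level, so these folds are limited by background. It was highest in macrophage-like cells, at 461 CPM with DHT and 241 CPM with Vehicle.

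The exopeptidases showed other orders. Ctsc (chr7:88278085-88310888), encoding cathepsin C or dipeptidyl peptidase I, which activates the serine proteases of granules, was highest in monocyte-like cells, at 753 CPM with DHT and 598 CPM with Vehicle, then in progenitor-like cells at 390 CPM (DHT) and 373 CPM (Vehicle). It was low in osteoclast-like cells, at 47.3 CPM (DHT) and 38.9 CPM (Vehicle). Ctsc was also among the 10 leading genes of the monocyte-like cluster, though it was left out of the clustering. Ctsh (chr9:90054152-90076089), encoding the aminopeptidase cathepsin H, was highest in dendritic cell-like cells, at 365 CPM with DHT and 319 CPM with Vehicle, and lowest in osteoclast-like cells, at 20.2 CPM (DHT) and 24.4 CPM (Vehicle). Ctsz (chr2:174427493-174439039), encoding the carboxypeptidase cathepsin Z, was the most even: its highest class was 6.22-fold above its lowest with DHT and 6.94-fold with Vehicle. Ctsa (chr2:164832873-164841032), encoding cathepsin A, a serine carboxypeptidase that also protects beta-galactosidase and neuraminidase, had 340 CPM with DHT and 269 CPM with Vehicle in macrophage-like cells and 315 CPM (DHT) and 287 CPM (Vehicle) in osteoclast-like cells, so which of the 2 classes was highest differed between the libraries.

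**Figure D1:**
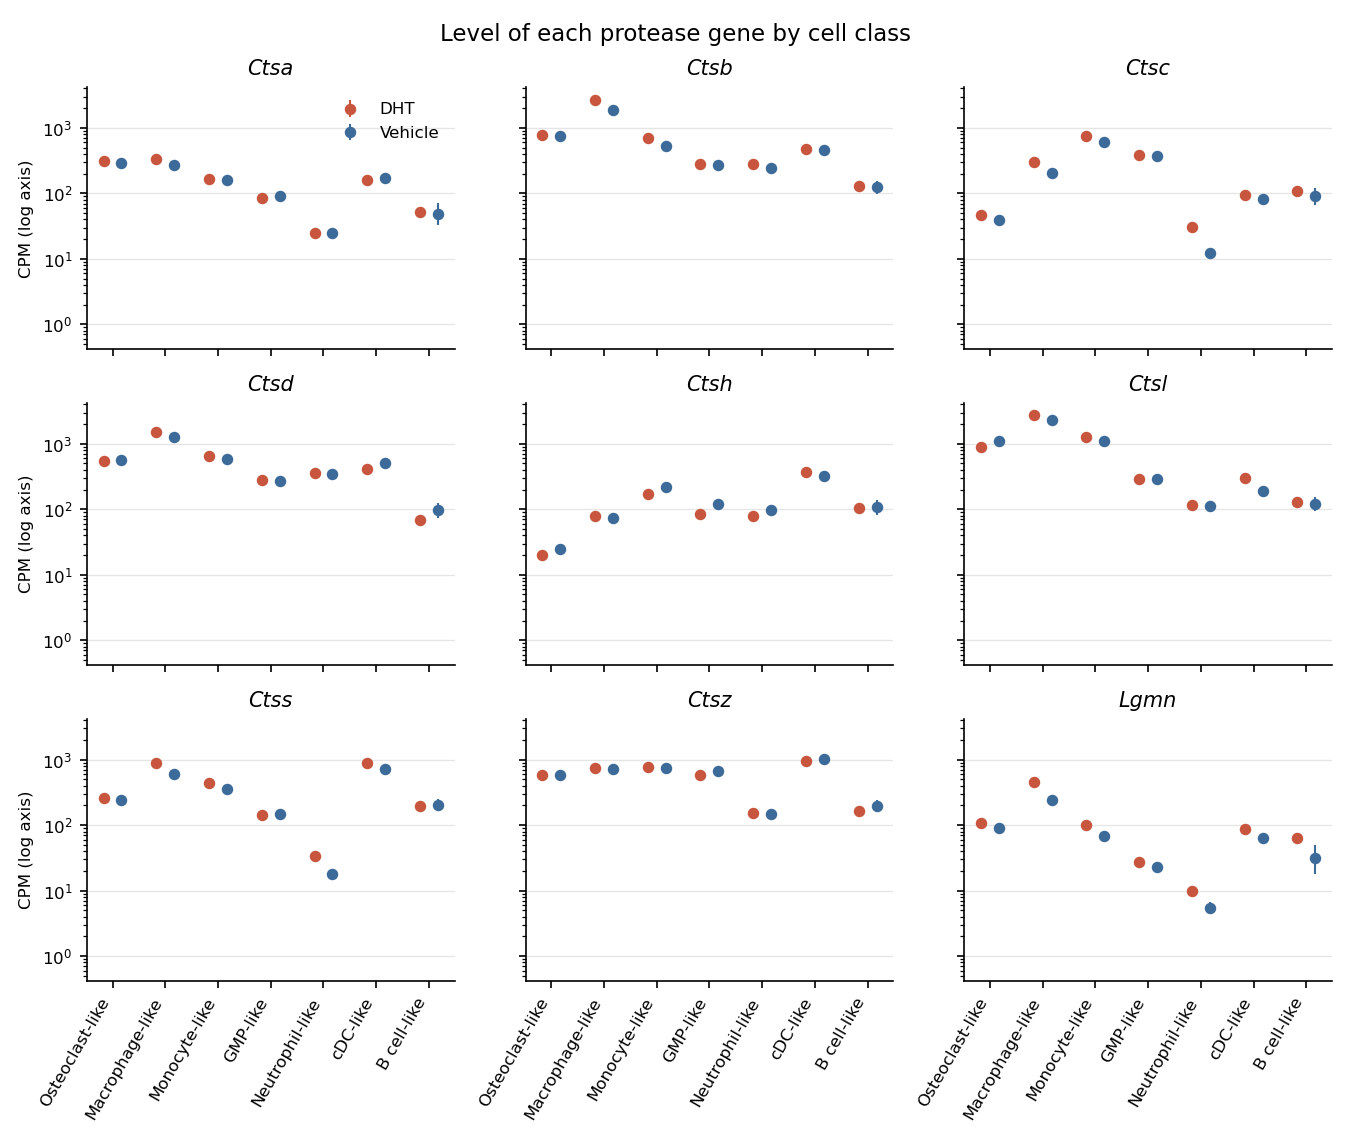
Level of each of the 9 genes in the 7 named cell classes, in CPM on a log axis, DHT left of Vehicle; points are sums over the cells of 1 library and lines are 95% Poisson intervals for counting error, mostly smaller than the point. Ctsb, Ctsl, Ctsd and Lgmn peak in macrophage-like cells, Ctsc in monocyte-like cells, at 753 CPM (DHT) and 598 CPM (Vehicle), and Ctsh in dendritic cell-like cells, at 365 CPM (DHT) and 319 CPM (Vehicle).

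Over the 14 points made by 7 classes and 2 libraries, Ctsb had a Pearson correlation of 0.93 with the summed level of the 9 genes on the log2(CPM + 10) scale, Ctsl 0.92 and Ctsa 0.91, while Ctsc had 0.51 and Ctsh 0.03. The sum contains each gene, and points of 1 library share its depth. Of 5875 other genes, those most like the sum were Eid1 and Cdk14 (both 0.99), Lrp1 (0.98), Stx12 (0.98), Tmbim1 (0.98), Tgfbi (0.98), Plxna1 (0.98) and Gnb1 (0.97). Lrp1 encodes an endocytic receptor and Tgfbi a secreted matrix protein.

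The overlap of annotated genes limits 7 of the 9 values, since whether the counting used strand is not given in the sources used here. Ctsa overlaps Neurl2 and Pltp, Ctsb overlaps Fdft1, Ctsz overlaps Nelfcd, and Ctsl overlaps the antisense gene Gm47123 and a pseudogene. Ctsc, Ctsd and Ctss overlap gene models that are not among the genes counted. Reads of such neighbours could be counted under either gene. Ctsh and Lgmn overlap no other gene.

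In macrophage-like cells all 9 genes had a higher level with DHT at the settings used here, and Lgmn, Ctsc, Ctss and Ctsb differed most. The genes compared are those of at least 20 CPM in 1 or both libraries, and a difference is counted when it reaches 1.5-fold, or, by a second rule, 1.2-fold. Of the 9 genes, 2, Lgmn and Ctsc, were at least 1.5-fold higher with DHT, where 3.88% of all 6630 genes compared were, and none was as much lower, where 1.27% were. By the 1.2-fold rule 5 of 9 were higher, where 11.9% of all genes were, and none was lower, where 10.9% were. The median log2 ratio of DHT over Vehicle was 0.34 over the 9 genes and -0.01 over all genes compared.

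Lgmn was at 461 CPM (454 to 468) in DHT and 241 CPM (238 to 245) in Vehicle macrophage-like cells, 1.91-fold higher with DHT (1.87 to 1.95). Ctsc was at 304 CPM (DHT) and 202 CPM (Vehicle), a log2 ratio of 0.59, and lay at the 1.5-fold line with an interval from 1.47 to 1.54. Ctss was just under it, at 894 CPM with DHT and 603 CPM with Vehicle, 1.48-fold higher with DHT (1.461 to 1.503). Ctsb followed at 1.42-fold higher with DHT (1.41 to 1.43), and Ctsa at 1.27-fold (1.24 to 1.29). The other 4 were closer, with log2 ratios of 0.25 for Ctsl, 0.21 for Ctsd, 0.09 for Ctsz and 0.08 for Ctsh. Under alternatives in the processing the ratio of Ctsh turned, down to -0.09, so no direction is read for it.

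The difference in Lgmn ran through the whole range of cells rather than through a few. The lower quartile of Lgmn per cell was 266 CPM with DHT and 145 CPM with Vehicle, the median 465 CPM (DHT) and 224 CPM (Vehicle), and the upper quartile 796 CPM (DHT) and 346 CPM (Vehicle), so the DHT lower quartile exceeded the Vehicle median. For Ctsb the medians were 2726 CPM with DHT and 1861 CPM with Vehicle, and the DHT lower quartile, 1944 CPM, again exceeded the Vehicle median. For Ctss the medians were 812 CPM (DHT) and 554 CPM (Vehicle), with a DHT lower quartile of 533 CPM below the Vehicle median. For Ctsc they were 246 CPM (DHT) and 156 CPM (Vehicle), with broad overlap: the upper quartile with Vehicle, 290 CPM, lay above the DHT median.

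**Figure D2:**
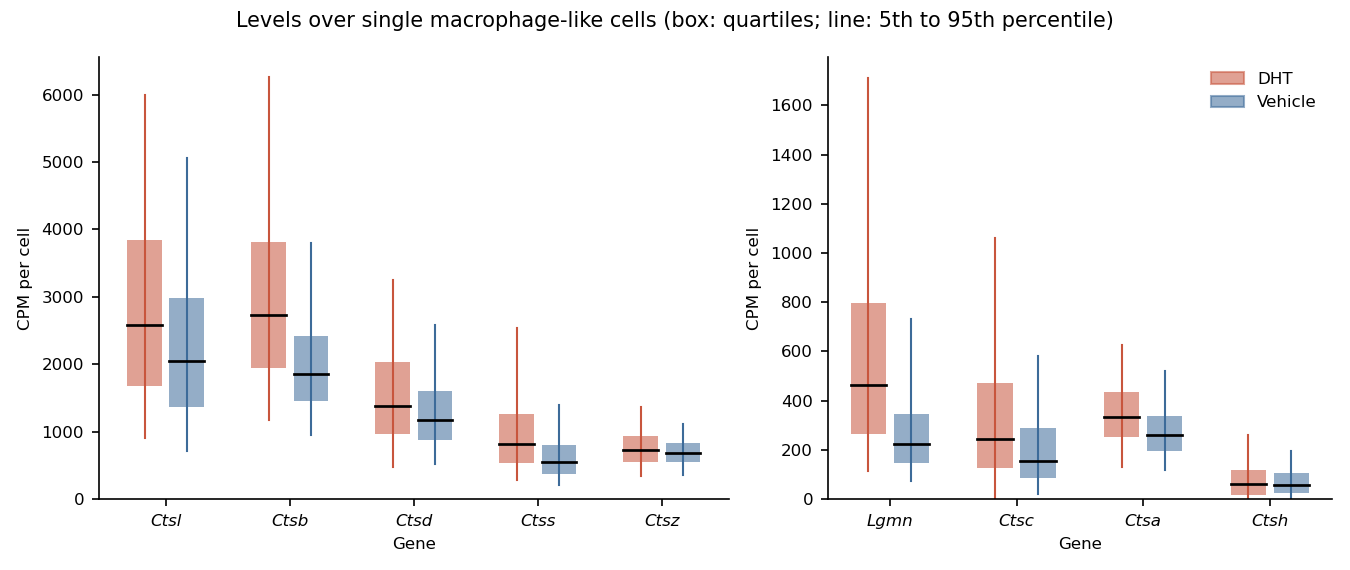
Level of each gene in single macrophage-like cells, in CPM of the cell's UMIs, for 943 DHT cells (left of each pair) and 1271 Vehicle cells; boxes run from the lower to the upper quartile with a line at the median, and thin lines from the 5th to the 95th percentile. The Lgmn boxes overlap in part, with medians of 465 CPM for DHT and 224 CPM for Vehicle, and those of Ctsh and Ctsz overlap too.

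Shares of cells with a UMI need equal depth, so each cell was thinned to 4714 UMIs and shallower cells were left out, 30 DHT and 8 Vehicle cells of this class. An Lgmn UMI was then found in 84.8% (82.3 to 87.1%) of DHT and 65.2% (62.5 to 67.9%) of Vehicle macrophage-like cells. The unthinned shares, 98.9% (DHT) and 99.5% (Vehicle), were near their ceiling. For Ctsc the thinned shares were 64.6% with DHT and 52.3% with Vehicle (unthinned 94.9% with DHT, 97.5% with Vehicle), and for Ctss 96.1% with DHT, 88.5% with Vehicle (unthinned 99.7% with DHT, 99.9% with Vehicle). In neutrophil-like cells, which have little Lgmn, the thinned Lgmn shares were 4.76% with DHT and 3.48% with Vehicle, of whose Lgmn level free RNA could give 52.2% (DHT) and 92.0% (Vehicle). The median depths were 37220 UMIs with DHT and 53988 UMIs with Vehicle in macrophage-like cells, and 13051 (DHT) and 9735.5 (Vehicle) UMIs in neutrophil-like cells.

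Other features of the macrophage-like cells differed with these genes. Of the 10 macrophage markers, 9 were higher with DHT, with a summed level of 2451 CPM with DHT and 1378 CPM with Vehicle, and C1qa was at 279 CPM (DHT) and 101 CPM (Vehicle). All 10 neutrophil markers were also higher, at 1537 CPM (DHT) and 572 CPM (Vehicle) in sum, and the proliferation gene Mki67 was at 235 CPM with DHT and 382 CPM with Vehicle. The interferon-stimulated gene Isg15 was at 187 CPM with DHT and 9.06 CPM with Vehicle in these cells. The estimated share of free RNA was 3.67% with DHT and 3.62% with Vehicle, and the part of the Lgmn level that free RNA gave was 1.09% (DHT) and 1.64% (Vehicle). The part of the macrophage and neutrophil markers, of Isg15 and of proliferation in the differences was not tested. Cluster 3 held low-UMI barcodes, with macrophage genes among its leading genes. Its median log2 ratio was 0.09 over the 9 genes and -0.01 over all genes compared. Ctsa was lower with DHT in cluster 3, at 216 CPM (DHT) and 263 CPM (Vehicle). There Lgmn was at 185 CPM with DHT and 96.1 CPM with Vehicle, Ctsc at 144 CPM (DHT) and 70.4 CPM (Vehicle), Ctsb at 1320 CPM (DHT) and 824 CPM (Vehicle) and Ctss at 535 CPM (DHT) and 371 CPM (Vehicle).

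Within macrophage-like cells, some of the 9 genes varied together from cell to cell. Over the 943 DHT and 1271 Vehicle cells, Ctsb and Ctsd had a Pearson correlation of 0.63 with DHT and 0.61 with Vehicle, Ctsb and Ctss 0.63 (DHT) and 0.56 (Vehicle), and Ctsb and Lgmn 0.60 (DHT) and 0.52 (Vehicle). Ctsl, the most abundant gene, was nearly unrelated to Ctsd (0.10 with DHT, 0.06 with Vehicle). Ctss was the gene most related to the summed interferon-stimulated genes of the same cell, at 0.57 with DHT and 0.36 with Vehicle, ahead of Lgmn at 0.46 (DHT) and 0.26 (Vehicle). Cells of 1 library share its handling, and the cells' depth enters all such values.

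In osteoclast-like cells the 9 genes hardly differed as a set, and Ctsl was the gene with the largest difference, lower with DHT. None of the 9 was at least 1.5-fold higher, where 1.06% of 6486 genes were, and none as much lower, where 0.0463% were. At 1.2-fold, Ctsc alone was higher, where 3.56% of genes were, and Ctsl and Ctsh were lower, where 1.36% were. The median log2 ratio was 0.08 over the 9 genes and 0.05 over all genes.

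Ctsl was at 897 CPM (891 to 903) in DHT and 1107 CPM (1103 to 1112) in Vehicle osteoclast-like cells, a log2 ratio of -0.30. Its thinned share of cells was 81.6% with DHT and 87.3% with Vehicle (unthinned 99.2% with DHT, 99.7% with Vehicle). Ctsh was at 20.2 CPM with DHT and 24.4 CPM with Vehicle, with thinned shares of 8.41% with DHT, 11.4% with Vehicle (unthinned 57.4% with DHT, 65.7% with Vehicle). Ctsc was at 47.3 CPM (DHT) and 38.9 CPM (Vehicle), of which free RNA could give 14.7% (DHT) and 11.2% (Vehicle). Its log2 ratio came down to 0.0007 among the alternatives in the processing. Lgmn was at 109 CPM with DHT and 91.8 CPM with Vehicle, a log2 ratio of 0.25, and Ctsz, at 581 CPM (DHT) and 583 CPM (Vehicle), did not differ beyond its counting interval.

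The osteoclast-like clusters differed from each other in Ctsl more than the libraries did. In cluster 4, the cluster with the most Acp5 (1426 CPM with DHT and 1247 CPM with Vehicle), Ctsl was at 381 CPM (DHT) and 503 CPM (Vehicle). Cluster 2 had 1228 CPM with DHT and 1388 CPM with Vehicle, and cluster 5 had 973 CPM (DHT) and 1296 CPM (Vehicle). Cluster 1, whose leading genes Plxna4, Akap6 and Gpnmb also lead osteoclast-like clusters 2 and 5 but whose Acp5 was at 173 CPM (DHT) and 134 CPM (Vehicle), had 1644 CPM of Ctsl with DHT and 1755 CPM with Vehicle. Ctsl was thus highest where Acp5 was lowest and lowest where Acp5 was highest, in both libraries, and it was lower with DHT in each of the 4 clusters.

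Ctsk, encoding cathepsin K, ran the other way, with 1143 CPM in DHT and 1043 CPM in Vehicle cells of cluster 4 against 83.7 CPM (DHT) and 95.5 CPM (Vehicle) in cluster 1. Cell by cell within the osteoclast-like class, Ctsl and Acp5 had a correlation of -0.56 with DHT and -0.57 with Vehicle. Ctsc and Acp5 had -0.39 (DHT) and -0.38 (Vehicle), and Ctsc was at 19.97 CPM with DHT and 19.96 CPM with Vehicle in cluster 4. Ctsz was the only gene of the set, apart from Ctsa, with a positive correlation with Acp5 in both libraries (0.23 with DHT and 0.17 with Vehicle; Ctsa 0.17 with DHT and 0.16 with Vehicle). Acp5 and Ctsk served to name and order these clusters, so the order of Acp5 and Ctsk themselves is no result.

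**Figure D3:**
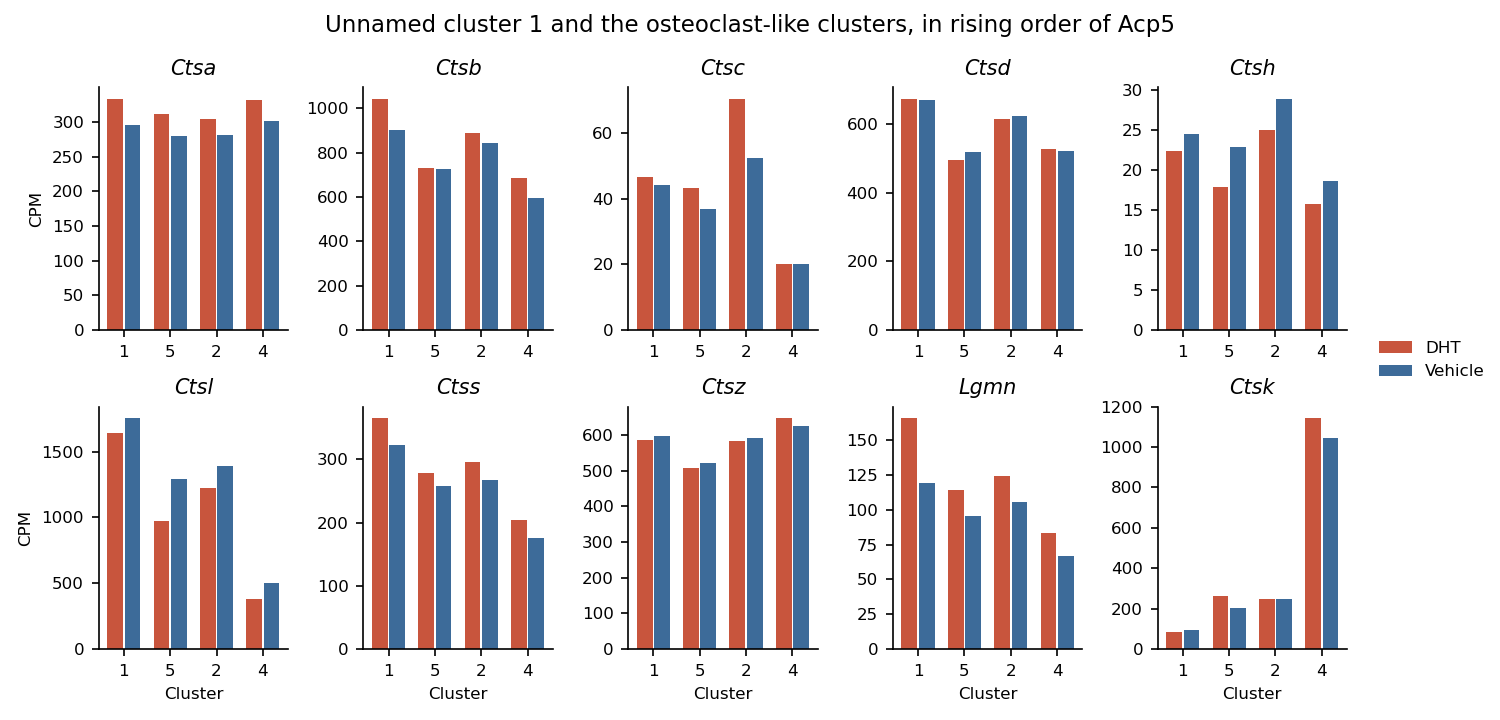
Levels of the 9 genes and of Ctsk in unnamed cluster 1 and the 3 osteoclast-like clusters, ordered by rising Acp5 in the Vehicle library, in CPM with DHT left of Vehicle; bars are sums over 1 library, with no error bar. Ctsl is lowest in cluster 4, at 381 CPM with DHT and 503 CPM with Vehicle, where Ctsk is highest, and Ctsa and Ctsz stay nearly level over the clusters.

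In monocyte-like cells Lgmn, Ctsb, Ctsc and Ctss were higher with DHT and Ctsh was lower. None of the 9 was at least 1.5-fold higher, where 1.79% of 6196 genes were, or lower, where 0.387% were. By the 1.2-fold rule 4 of 9 were higher, where 9.64% of genes were, and Ctsh alone was lower, where 3.13% were; the median log2 ratio was 0.21 over the 9 genes and 0.05 over all genes. Lgmn was at 102 CPM with DHT and 69.4 CPM with Vehicle, 1.47-fold higher with DHT (1.38 to 1.57), with thinned shares of 35.0% with DHT, 26.7% with Vehicle (unthinned 89.0% with DHT, 79.2% with Vehicle). Ctsb was at 689 CPM (DHT) and 536 CPM (Vehicle), Ctsc at 753 CPM (DHT) and 598 CPM (Vehicle) and Ctss at 443 CPM (DHT) and 362 CPM (Vehicle). Ctsh went the other way, at 173 CPM with DHT and 218 CPM with Vehicle, a log2 ratio of -0.34. The macrophage markers summed to 717 CPM in DHT and 602 CPM in Vehicle monocyte-like cells; their part in these differences was not tested.

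In the granulocyte-monocyte progenitor-like cells, the early cells of this lineage, Ctsh was the gene that differed most, again lower with DHT. It had 83.5 CPM with DHT (80.9 to 86.1) and 121 CPM with Vehicle (118 to 125), a log2 ratio of -0.54. Ctsh was lower in both clusters of the class, at 102 CPM (DHT) and 136 CPM (Vehicle) in cluster 9 and at 19.96 CPM (DHT) and 25.3 CPM (Vehicle) in cluster 13, which was a larger part of the class with DHT. The neutrophil markers, 9 of 10 of them higher, summed to 18821 CPM (DHT) and 8974 CPM (Vehicle) in the class; their part was not tested. The thinned shares of cells with a Ctsh UMI were 27.9% with DHT, 38.2% with Vehicle (unthinned 81.8% with DHT, 87.6% with Vehicle). None of the 9 was at least 1.5-fold higher, where 1.37% of 6435 genes were, or lower, where 0.264% were. At 1.2-fold, Lgmn was higher at 27.2 CPM with DHT and 22.6 CPM with Vehicle, where 10.8% of genes were, and Ctsh was lower, where 3.37% were. Ctsl, at 292 CPM with DHT and 289 CPM with Vehicle, had an interval of the ratio that held 1.

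The serine proteases that cathepsin C matures were abundant in the same progenitor-like cells, beside a Ctsc level of 390 CPM with DHT and 373 CPM with Vehicle. Over the class, Prtn3, encoding proteinase 3, was at 2459 CPM with DHT and 1973 CPM with Vehicle, and Ctsg, encoding cathepsin G, at 1604 CPM (DHT) and 1428 CPM (Vehicle). Elane, encoding neutrophil elastase, was at 2051 CPM (DHT) and 1703 CPM (Vehicle) over the class but lower with DHT inside both of its clusters. It was at 397 CPM (DHT) and 447 CPM (Vehicle) in cluster 9, and at 7624 CPM (DHT) and 10014 CPM (Vehicle) in cluster 13. Cluster 13 made up 204 of 631 DHT and 114 of 533 Vehicle cells of the class, so no direction is read from the class values of these proteases, nor from the list's count of 3 of 4 genes at least 1.2-fold higher over the class (8 listed, 4 with enough UMIs). Elane, Prtn3 and Prss57 also served as markers of this class. Most of the class's Ctsc was in cluster 9, at 499 CPM with DHT and 425 CPM with Vehicle. In cluster 13, led by Elane, it was at 24.4 CPM with DHT and 29.1 CPM with Vehicle.

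In neutrophil-like cells, Ctsc and Ctss were higher with DHT and Ctsh was lower, all 3 at levels under 100 CPM. Lgmn was under 20 CPM in both libraries, at 9.75 CPM with DHT and 5.45 CPM with Vehicle, and was left out of the counts. Of the 8 genes compared, Ctsc and Ctss were at least 1.5-fold higher, where 2.13% of 5263 genes were, and none was as much lower, where 0.266% were. At 1.2-fold the same 2 were higher, where 13.8% of genes were, and Ctsh was lower, where 7.05% were. The median log2 ratio was 0.05 over the 8 genes and 0.05 over all genes.

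Ctsc was at 30.2 CPM (28.4 to 32.2) in DHT and 12.5 CPM (10.7 to 14.4) in Vehicle neutrophil-like cells, 2.43-fold higher with DHT (2.07 to 2.86), and its thinned shares were 13.8% with DHT, 6.86% with Vehicle (unthinned 26.3% with DHT, 13.03% with Vehicle). Ctss was at 33.8 CPM with DHT and 18.0 CPM with Vehicle, 1.88-fold higher with DHT (1.64 to 2.16), with thinned shares of 16.0% with DHT, 8.60% with Vehicle (unthinned 34.5% with DHT, 19.96% with Vehicle). Ctsh was at 78.1 CPM with DHT and 98.7 CPM with Vehicle. Free RNA, estimated from osteoclast genes found in these cells, could give 25.7% of the DHT and 43.9% of the Vehicle level of Ctsc. For Ctss it could give 37.4% (DHT) and 77.9% (Vehicle). Among the alternatives in the processing the log2 ratio of Ctss came down to 0.11, from 0.91, and that of Ctsc to 0.85, from 1.28. The macrophage markers, 8 of 10 of them higher, summed to 67.0 CPM with DHT and 41.4 CPM with Vehicle; their part was not tested.

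Of the 9 genes, 7 were highest in neutrophil-like cluster 6 in both libraries; Ctsh was highest in cluster 7, and Ctsa in cluster 10 with DHT and cluster 6 with Vehicle. The estimated share of free RNA was also highest in cluster 6, at 7.18% (DHT) and 8.39% (Vehicle), against 3.83% (DHT) and 4.00% (Vehicle) in cluster 7. It could give 43.0% of the DHT and 88.3% of the Vehicle level of Ctss in cluster 6, and 53.8% of the DHT and 103% of the Vehicle level of Lgmn. For Ctsa it could give 63.6% (DHT) and 78.0% (Vehicle) there. No order of the clusters is read for Ctss, Lgmn or Ctsa. Cluster 6, led by the mature neutrophil genes Retnlg and Il1b, had 929 CPM of Ctsd with DHT and 928 CPM with Vehicle, against 283 CPM (DHT) and 283 CPM (Vehicle) in cluster 7, led by Ltf, and 146 CPM (DHT) and 150 CPM (Vehicle) in cluster 10, the cluster with Elane. Ctsb was likewise highest in cluster 6, at 558 CPM with DHT and 515 CPM with Vehicle. The Ctsc difference was widest there, at 86.8 CPM with DHT (79.8 to 94.1) and 29.0 CPM with Vehicle (23.3 to 35.8), with thinned shares of 24.1% with DHT, 10.6% with Vehicle (unthinned 31.6% with DHT, 13.3% with Vehicle). Free RNA could give 17.3% of the DHT and 34.6% of the Vehicle level of Ctsc in cluster 6. In clusters 7 and 10 Ctsc was at 15.9 and 14.5 CPM with DHT and 8.93 and 7.73 CPM with Vehicle. In cluster 6 the macrophage markers summed to 158 CPM with DHT and 93.7 CPM with Vehicle, with C1qa at 4.37 CPM (DHT) and 0.990 CPM (Vehicle); their part was not tested.

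**Figure D4:**
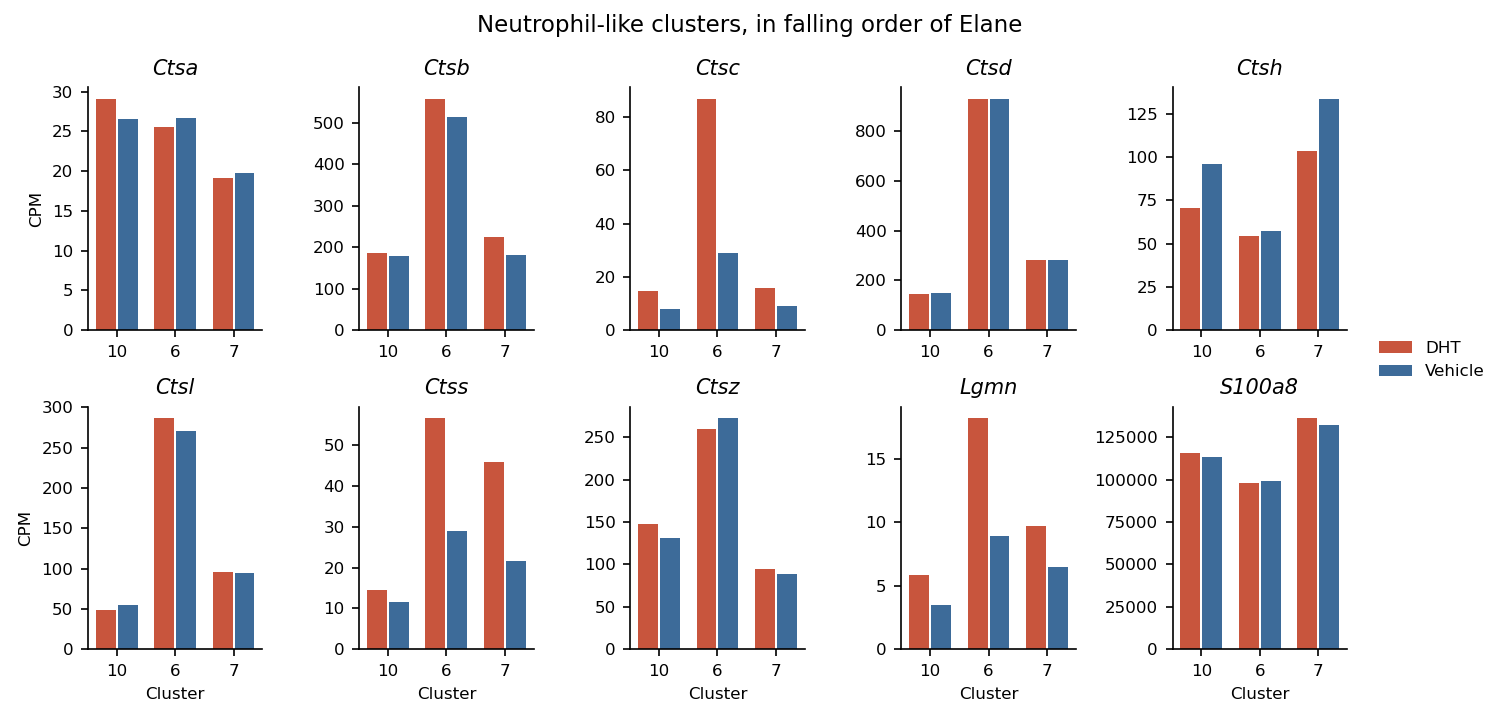
Levels of the 9 genes and of S100a8, a neutrophil gene, in the 3 neutrophil-like clusters, ordered by falling Elane, in CPM with DHT left of Vehicle; bars are sums over 1 library, with no error bar. Cluster 6 has the most Ctsd, at 929 CPM with DHT and 928 CPM with Vehicle, and the widest difference in Ctsc, at 86.8 CPM with DHT and 29.0 CPM with Vehicle.

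In the conventional dendritic cell-like cells, which present antigen, Ctsz was the most abundant of the 9 genes, at 957 CPM (DHT) and 1032 CPM (Vehicle). Ctss came next and was higher with DHT. Ctsh was below Ctsb and Ctsd here, but both Ctsz and Ctsh had their highest level of the named classes in these cells. Ctss had 889 CPM with DHT (862 to 916) and 717 CPM with Vehicle (698 to 738), and Ctsh had 365 CPM (DHT) and 319 CPM (Vehicle). The class had 143 DHT and 189 Vehicle cells. Ctsl alone of the 9 genes was at least 1.5-fold higher, where 10.5% of 6429 genes were, and none was as much lower, where 3.42% were. Ctsl was at 296 CPM with DHT and 189 CPM with Vehicle, but its thinned shares were 23.6% with DHT, 30.3% with Vehicle (unthinned 74.8% with DHT, 76.7% with Vehicle), the other way round, so no order is read from it. Free RNA was estimated at 6.16% of UMIs in the DHT and 18.2% in the Vehicle cells, and it could give 22.1% of the DHT and 122% of the Vehicle level of Ctsl, as against 2.35% with DHT and 7.74% with Vehicle for Ctss.

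The B cell-like cells were few, 340 cells with a median of 6269 UMIs in the DHT library and 116 cells with a median of 4571.5 UMIs in the Vehicle library, and their intervals are wide. Lgmn alone was at least 1.5-fold higher, where 10.3% of 7003 genes were, and none of the 9 was as much lower, where 7.67% were. Lgmn had 63.7 CPM with DHT (53.7 to 74.9) and 31.0 CPM with Vehicle (18.0 to 49.6), from 145 (DHT) and 17 (Vehicle) UMIs. Neutrophil markers summed to 1179 CPM in DHT and 8874 CPM in Vehicle B cell-like cells, with S100a8 at 391 CPM (DHT) and 3405 CPM (Vehicle); their part was not tested. The direction of Lgmn here also turned with the treatment of doublets, as given under the dependence on processing.

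**Figure D5:**
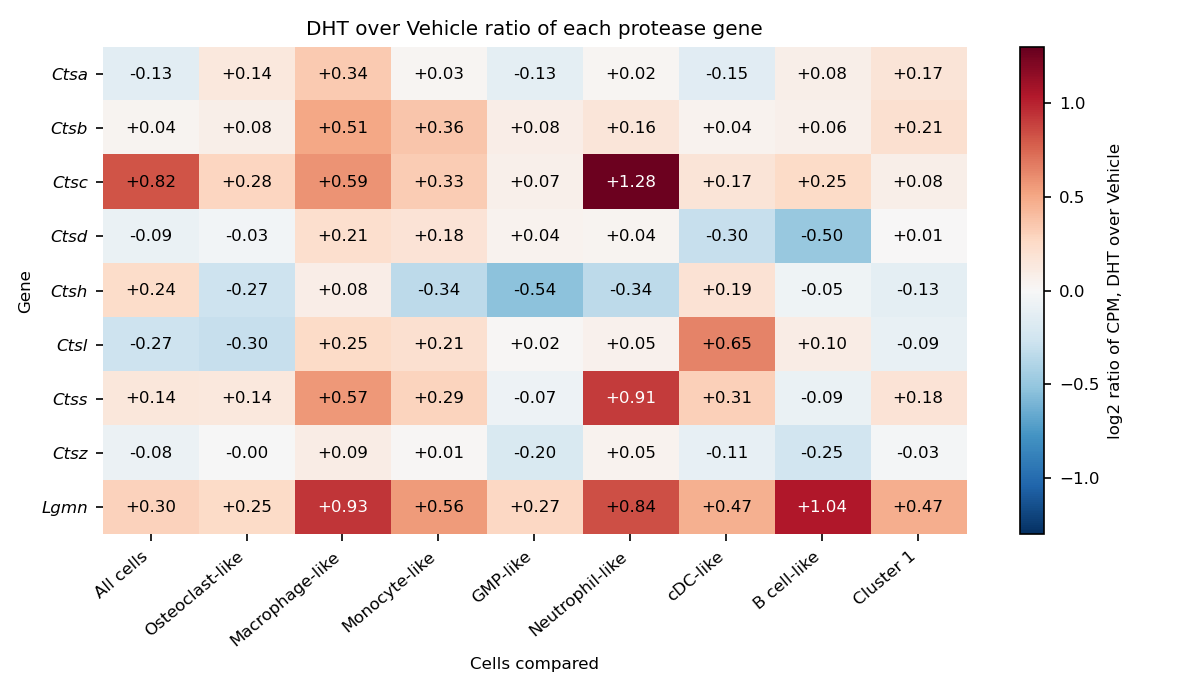
Log2 ratio of the level with DHT over the level with Vehicle for each gene in all filtered cells, the 7 named classes and unnamed cluster 1; red is higher with DHT, blue lower, and each cell of the map prints its value. Lgmn is above 0 in every column, from 0.25 in osteoclast-like to 1.04 in B cell-like cells, though in neutrophil-like cells it was under 20 CPM. Ctsh is at -0.54 in progenitor-like cells but 0.24 in all cells.

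Across classes, the log2 ratios of Lgmn, Ctsc and Ctsb were above 0 in all 7 classes with the settings used here, but alternatives turned some of them. Lgmn turned in B cell-like cells (down to -0.18), Ctsc in dendritic cell-like (-0.38) and progenitor-like cells (-0.26), and Ctsb in B cell-like (-1.69), progenitor-like (-0.10), dendritic cell-like (-0.08) and neutrophil-like cells (-0.01). In macrophage-, monocyte- and osteoclast-like cells all 3 stayed above 0 under every alternative run. In osteoclast-like cells, however, Ctsc came down to 0.0007 and Ctsb to 0.02, which is no difference. With the settings used here, the log2 ratio of Lgmn was lowest in osteoclast-like cells, at 0.25, and was 0.47 in cluster 1. Ctsc came down to 0.07 in progenitor-like cells and Ctsb to 0.04 in dendritic cell-like cells. In neutrophil-like cells Lgmn was under 20 CPM, and free RNA could give 52.2% (DHT) and 92.0% (Vehicle) of its level. In progenitor-like cells the ratio of Lgmn came down to 0.0008 among the alternatives. Ctsh was lower with DHT in osteoclast-, monocyte-, progenitor- and neutrophil-like cells, with log2 ratios from -0.27 to -0.54, near 0 in macrophage- and B cell-like cells (0.08 and -0.05), and higher in dendritic cell-like cells (0.19). Ctsz stayed between -0.25 and 0.09 in all 7 classes. Whether any ratio differed between classes was not tested, as each class has 1 library per condition.

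In all filtered cells together, Ctsc differed most, and the libraries held different mixes of cells. Ctsc alone was at least 1.5-fold higher with DHT, where 5.54% of 6737 genes were, at 213 CPM with DHT (211 to 214) and 121 CPM with Vehicle (120 to 122). None was as much lower, where 0.178% were. At 1.2-fold Ctsc and Lgmn were higher, where 11.7% were, and Ctsl was lower, where 6.03% were. Ctsl was at 1068 CPM with DHT and 1292 CPM with Vehicle, and Ctsh at 67.7 CPM (DHT) and 57.2 CPM (Vehicle).

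Fixing the cell mix changed these values. When the levels per cell of the 15 clusters were weighted by the cell shares of the Vehicle library in both conditions, the log2 ratio of Ctsc was 0.40 instead of 0.82, and that of Ctsl was -0.14 instead of -0.27. Ctsh turned, to -0.14 instead of 0.24, and Lgmn was 0.43 instead of 0.30. With the cell shares of the DHT library the values were 0.42 for Ctsc, -0.14 for Ctsl, -0.15 for Ctsh and 0.43 for Lgmn. The DHT library held a smaller share of osteoclast-like cells, 20.2% against 36.2% with Vehicle, which are low in Ctsc and Ctsh, and a larger share of monocyte-like cells, 6.72% against 4.603% with Vehicle, which are high in both. The monocyte-like cells alone held 38.5% of all Ctsc UMIs with DHT and 23.3% with Vehicle.

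Other lysosomal genes in macrophage-like cells were higher with DHT more often than lower. Of 23 other lysosomal hydrolase genes compared, 7 reached 1.2-fold in the higher direction and none in the lower, and the median log2 ratio was 0.22, beside 11.9% higher and 10.9% lower over all genes. The furthest was Acp2, encoding lysosomal acid phosphatase, at 139 CPM with DHT and 79.5 CPM with Vehicle, followed by Ids, encoding iduronate sulfatase, at 39.9 CPM (DHT) and 27.7 CPM (Vehicle). Of 16 genes of lysosomal membrane and activator proteins, 5 were higher, none was lower, and the median was 0.17. Npc2, which binds cholesterol in the lysosome, was at 1157 CPM with DHT and 641 CPM with Vehicle, and Psap, whose product yields the saposins, at 1383 CPM with DHT and 1091 CPM with Vehicle.

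Genes that carry enzymes to the lysosome and acidify it had medians nearer 0, at 0.06 for sorting and 0.12 for the proton pump. Of 13 sorting genes, 3 reached 1.2-fold in the higher direction and none in the lower; M6pr, the small mannose 6-phosphate receptor, was at 354 CPM with DHT and 286 CPM with Vehicle. Of 18 subunits of the proton pump, 4 were higher and 1 lower, Atp6v0d2, which is abundant in osteoclasts, at 14.8 CPM with DHT and 21.0 CPM with Vehicle. Of 14 regulators, Tfe3 was higher, at 61.2 CPM (DHT) and 44.1 CPM (Vehicle), and Lamtor5 and Rptor were lower. The inhibitor gene Csta2 was at 42.8 CPM with DHT and 13.6 CPM with Vehicle; it has near-identical neighbours among the stefin genes, so its count is uncertain. Of the MHC class II pathway 2 genes were compared: Cd74, the invariant chain that cathepsin S cuts, was at 60.2 CPM with DHT and 23.7 CPM with Vehicle, and Ifi30, encoding a lysosomal thiol reductase, at 290 CPM (DHT) and 341 CPM (Vehicle).

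In osteoclast-like cells the MHC class II genes had a median log2 ratio of 0.72, and the other hydrolases 0.10, beside 0.05 over all genes. Of 23 other hydrolase genes 3 were at least 1.2-fold higher, where 3.56% of all genes were, and 1 was lower, where 1.36% were. The lower gene, Lipa, encoding lysosomal acid lipase, was at 79.0 CPM with DHT and 98.4 CPM with Vehicle. Of 5 MHC class II pathway genes compared, 4 were at least 1.5-fold higher, where 1.06% of 6486 genes were. Cd74 was at 188 CPM with DHT and 114 CPM with Vehicle, and H2-Aa at 33.5 CPM (DHT) and 18.7 CPM (Vehicle). H2-Ab1 was at 39.5 CPM (DHT) and 24.0 CPM (Vehicle), and H2-Eb1 at 27.8 CPM (DHT) and 15.3 CPM (Vehicle). The dendritic cell markers, a list that holds the last 3 of these, summed to 103 CPM with DHT and 59.8 CPM with Vehicle in osteoclast-like cells; their part was not tested.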

How the data were processed

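Single-cell RNA-seq of 2 libraries was used as the authors' deposited UMI count matrices, whole counts per gene and barcode. Per the file headers, Cell Ranger 7.0.1 made these counts. The submitters' processing notes list mm10 and GRCh38 and give neither a role. For barcode calling, intronic reads and strand, the setting is not given in the sources used here. Cells entered with 300 genes and 800 UMIs or more and a mitochondrial share of 10% or less, and doublets called by Scrublet (expected rate 0.08) were removed, 205 in DHT and 165 in Vehicle cells. Clustering (scanpy 1.11.5, leidenalg 0.10.2; 2000 variable genes, 30 principal components, 15 neighbours, resolution 0.6) left out the 9 genes and 106 interferon-stimulated genes. A cluster was named where at least 3 markers and 50% of a type's markers were 2-fold above the median of the other clusters, with a median of at least 2000 UMIs. At least 1 marker of the type also had to be among the cluster's 10 leading genes, with no other type holding more there. This scoring rule, the 9 genes and all gene lists were chosen with earlier results of these data known.

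Counts were summed per library and class and divided by all UMIs of the class (CPM). Intervals are exact Poisson for a level, exact conditional binomial for a ratio and exact Clopper-Pearson for a share. The totals per library set the precision: 319430510 UMIs with DHT and 453802415 with Vehicle. With 1 library per group no p-value was computed. Genes of the lists were named where they differed by at least 1.5-fold or had the 2 highest or 2 lowest ratios of their list. Free RNA was estimated per class from markers of other classes. Alternatives in scaling (edgeR 4.0.16 for TMM factors only, in R 4.3.3), filters, doublets and clustering are given in the closing section. Scripts, tested on simulated data, used Python 3.11.15, scipy 1.17.1, numpy 2.4.6, matplotlib 3.10.9 and pandas 2.3.3.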

Additional observations from a re-analysis of the deposited data

Results flagged for a closer look

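The log2 ratio of DHT over Vehicle for Ctsl, the cathepsin L gene, was 0.65 in conventional dendritic cell-like cells and -0.30 in osteoclast-like cells, values of opposite sign whose difference was not tested. No direction is read from the dendritic cell-like value: free RNA could give 22.1% of the DHT and 122% of the Vehicle level of Ctsl there, and the thinned shares of cells with a Ctsl UMI, 23.6% with DHT and 30.3% with Vehicle, went against the level. The filters removed 2887 barcodes in the DHT and 1884 in the Vehicle library, and 205 (DHT) and 165 (Vehicle) called doublets were left out too. Summed together, these barcodes had a log2 ratio of 0.70 for Ctsc and 0.65 for Lgmn. Both genes were flagged for being at least 1.5-fold higher, so their direction follows from the rule. The median log2 ratio in these barcodes was 0.20 over the 9 genes and -0.10 over all genes compared. The mix of cells was not fixed here. The removed barcodes hold broken cells, free RNA and called doublets as well as small cells, and the values were not tested.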

How the results depend on the processing

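No paired analysis was possible because each condition had 1 library. Over the 72 ratios of a gene in a class or in all cells, 1087 of 1170 alternative values kept their direction; of the 28 ratios of at least 1.2-fold, 457 of 460 did. The 3 exceptions were in B cell-like cells: Ctsd at a log2 ratio of 0.11 when the top 10% of doublet scores were removed, and Lgmn at -0.18 with no doublet removal and -0.10 with the lysosomal lists also left out of clustering. Not all of these alternatives could turn a ratio. Dropping the filter on low values, or a minimum of 100 CPM, changed only which genes were counted, so those ratios kept their direction by construction. TMM and median of ratios scaling moved all log2 ratios of a class by the same amount, at the furthest -0.078 in all cells. That is too little to turn a ratio of at least 1.2-fold. Shares turned where cells were not thinned: by -8.65 points for Ctsc and -9.19 for Ctsh in all cells, and by -2.57 for Ctsc, -0.24 for Ctss and -0.59 for Lgmn in macrophage-like cells. Counts of the 9 genes at least 1.5-fold higher changed as follows. In all cells, 1 became 0 at either fixed cell mix. In macrophage-like cells, 2 became 1 with TMM or median of ratios scaling, the deeper library thinned, free RNA subtracted, a mitochondrial limit of 20%, no doublet removal, a floor of 1000 genes and 2000 UMIs, the 10% highest doublet scores removed, resolution 0.3 or 1.0, all variable genes, or the lysosomal lists left out, and 4 with CPM averaged over cells; Ctsc lies at the 1.5-fold line. In monocyte-like cells, 0 became 1 with a mitochondrial limit of 5% or 20%, resolution 0.3 or 1.0, the lysosomal lists left out, clusters scored against all other cells, or CPM averaged over cells. In neutrophil-like cells, 2 became 0 at a minimum of 100 CPM and 1 with no doublet removal. In dendritic cell-like cells, 1 became 2 with free RNA subtracted and 0 with at least 1000 genes and 2000 UMIs, resolution 1.0, all variable genes, or the lysosomal lists left out. In B cell-like cells, 1 became 0 at a minimum of 100 CPM, a mitochondrial limit of 20%, or with the lysosomal lists left out, and 2 with free RNA subtracted. Counts at least 1.5-fold lower were 0 and became 1 in progenitor-like cells with TMM or median of ratios scaling, a mitochondrial limit of 5%, the 10% highest doublet scores removed, resolution 1.0 or all variable genes. In B cell-like cells they became 1 with free RNA subtracted or all variable genes, 4 with a mitochondrial limit of 20%, and 5 with no doublet removal or the lysosomal lists left out. For the pathway lists, the 1.2-fold rule gave 14 genes lower in all cells in place of 0, 10 higher in place of 5 and 2 lower in place of 0 in osteoclast-like cells, and 22 higher in place of 4 and 3 lower in place of 0 in macrophage-like cells, where a minimum of 5 CPM gave 9 higher. The cause was not tested. Free RNA was not subtracted for all filtered cells together, and at resolution 0.3 no cluster was named as progenitor-like, so neither gave a value.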
